A study of Homo sapiens with 18 samples.

Results

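HEK293T cells that expressed a methionine-degrading enzyme were compared directly with HEK293T cells that received an inhibitor of the lipid kinase VPS34, each treatment on its own and each with 3 poly(A)-selected RNA libraries. The libraries were chosen by their labels and are 6 of the 18 in the series. The methionase cells were transfected for 24 h with a plasmid labelled MethionaseNLS and kept in DMSO. The Vps34-IN1 cells were transfected for 24 h with the empty pLEX vector and exposed to the drug at 5 µM for 12 h. Empty vector cells in DMSO at 24 h serve below to show on which side of the untreated level a gene lay. Cells with both treatments, transfected for 24 h and exposed to the drug at 5 µM for 12 h, are quoted for a few genes. HEK293T is a human embryonic kidney line that carries the SV40 large T antigen, and all cells were of wild-type genotype.

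The 2 groups differ in the plasmid, in the drug and in the length of exposure (24 h of transfection, 12 h of drug), and no catalytically dead methionase was among the labels. Each gene's p-value rests on how far libraries of the same group differed among themselves, pooled over all 18 libraries. The labels do not say whether libraries of a group came from separate cultures, so that scatter may be technical. A single batch label covers all 18 libraries. Libraries held 18850736 to 19031459 reads with methionase and 20239995 to 20518982 reads with Vps34-IN1. All 11 markers of HEK293T cells were present, with VIM at 11720 to 12860 normalised reads in methionase cells and 12880 to 13000 in Vps34-IN1 cells. The summed level of 8 fibroblast markers was 648 to 760 normalised reads in methionase cells and 455 to 674 in Vps34-IN1 cells. Most of it was COL1A1, and 4 of the 8 stayed below 10 in all 6 libraries. Of the 4 tested, COL1A1 (0.27 log2) and PDGFRA (0.43 log2) were called higher in methionase cells and 0 lower, with PDGFRA at 35.3, 38.3 and 32.5 normalised reads in methionase cells and 13.3, 18.4 and 12.4 in Vps34-IN1 cells. The count of higher markers was 1 without methionase replicate 1 or 3 or drug replicate 2 or 3, and 3 without drug replicate 1. Leukocyte markers summed to 127 to 144 in methionase cells and 141 to 167 in Vps34-IN1 cells with CD3E at 0, and hepatocyte markers to 26.7 to 54.8 in methionase cells and 21.5 to 25.5 in Vps34-IN1 cells with FGB at 0. Whether these low levels bear on any result was not tested.

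Methionase is a bacterial enzyme that splits methionine into an oxoacid, ammonia and methanethiol. Methionine feeds protein synthesis and, as S-adenosylmethionine, the methylation of DNA, histones and RNA. VPS34, encoded by PIK3C3, is the catalytic subunit of class 3 phosphoinositide 3-kinase, which makes phosphatidylinositol 3-phosphate on endosomes and forming autophagosomes, and Vps34-IN1 blocks its active site. Loss of amino acids and disturbed membrane traffic are both known to engage the integrated stress response, in which phosphorylation of eIF2 raises translation of the transcription factor ATF4.

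A gene was called at an adjusted p below 0.05 in limma, a linear model with moderated variances, with Benjamini-Hochberg adjustment over the 17755 genes tested. Differences are methionase minus Vps34-IN1 on the deposited log2 scale, which is variance-stabilised and compresses the differences of weakly expressed genes. Levels are normalised reads, that is reads divided by the library's size factor. Of the 17755 genes, 6433 were called (36.2%), 2891 higher (16.3%) and 3542 lower (19.9%) in methionase cells. Most differences were small: 28 genes were higher (0.158%) and 26 lower (0.146%) by at least 1 log2. The 3 libraries of one group lay wholly above or below those of the other for 7872 genes (44.3%). The median over all genes was 0.00. Against the control 39.2% of genes were called for methionase and 40.1% for Vps34-IN1. In bulk RNA fewer cells of a kind and less RNA per cell cannot be told apart.

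Leaving aside small RNAs, which are described further on, and genes with clone-type names, the largest differences on the higher side included TXNIP, the heat shock genes HSPA1B, DNAJB1 and HSPA8, and the chromatin reader BRD2. On the lower side stood the pseudokinase gene TRIB1, the small GTPase gene RHOB, the transcription factor genes SNAI2, MYC, NR4A3, KLF6, FOSL2 and ATF3, and the stress genes SESN2, EIF2AK3, CHAC1 and DDIT3. TXNIP, an arrestin that lowers glucose uptake and binds thioredoxin, had 844, 1576 and 2175 normalised reads in the 3 methionase libraries, against 222, 138 and 161 in the Vps34-IN1 libraries and 1035, 890 and 662 in controls. The methionase libraries lay above all Vps34-IN1 libraries and overlapped the controls, and the drug libraries lay below all of them. The difference was 2.60 ± 0.21 log2 (SE, 95% interval 2.15 to 3.04, adjusted p = 1.16e-08), or 8.82 times in mean reads. With both treatments TXNIP stood at 121, 101 and 102 normalised reads. ARRDC4, a sister arrestin, was also higher, by 0.57 ± 0.11 log2. It had 663, 792 and 967 normalised reads in methionase cells, against 559, 475 and 499 in Vps34-IN1 cells and 1246, 1245 and 993 in controls, so that for this gene the control libraries were highest. These were the only called genes among 7 tested arrestin family members (4 were called with quantile normalization).

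**Figure D1:**
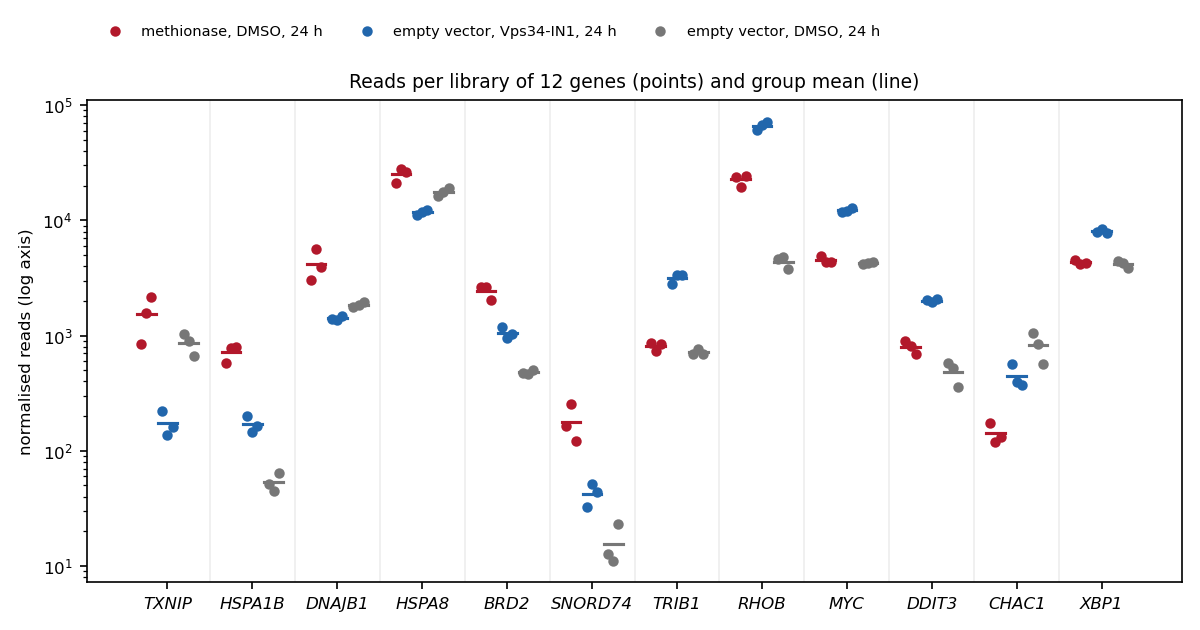
Normalised reads (log axis) of 12 genes in each library at 24 h, methionase (red), Vps34-IN1 (blue) and empty vector DMSO control (grey), with a line at each group mean. The red and blue points do not overlap for any of the 12 genes; TXNIP lies at 844 to 2175 in methionase cells and 138 to 222 in Vps34-IN1 cells.

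RHOB, an immediate early GTPase gene of endosomal traffic, had 23955, 19637 and 24506 normalised reads in methionase cells, 61148, 66973 and 70920 in Vps34-IN1 cells and 4596, 4809 and 3780 in controls. Both treatments lay above the controls, and the drug lay above methionase in every library (-1.55 ± 0.13 log2, adjusted p = 1.81e-08). MYC, the growth-promoting transcription factor, behaved differently against the controls. It had 4866, 4330 and 4333 normalised reads in methionase cells and 11943, 12110 and 12793 in Vps34-IN1 cells, while controls had 4167, 4267 and 4344. Methionase cells differed from the control by 0.08 log2 (adjusted p = 0.391) and drug cells by 1.51 log2, and the direct difference was -1.43 ± 0.07 log2 (adjusted p = 1.9e-12). Cells with both treatments had 7460, 8067 and 7078 normalised reads of MYC.

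TRIB1, a scaffold for the COP1 ubiquitin ligase, was the most strongly lower gene (-1.86 ± 0.10 log2, adjusted p = 1.07e-11). It had 860, 734 and 852 normalised reads in methionase cells, against 2827, 3341 and 3364 in Vps34-IN1 cells and 692, 772 and 695 in controls. SNAI2, a repressor of epithelial genes, stood at 579, 612 and 586 in methionase cells and 1635, 1784 and 1945 in Vps34-IN1 cells. Its controls had 868, 847 and 932, between the treatments. PTP4A1, a phosphatase, and TSC22D3, a glucocorticoid-inducible leucine zipper gene, were lower by 1.23 and 1.29 log2 in size, at means of 0.419 and 0.412 times their Vps34-IN1 levels.

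**Figure D2:**
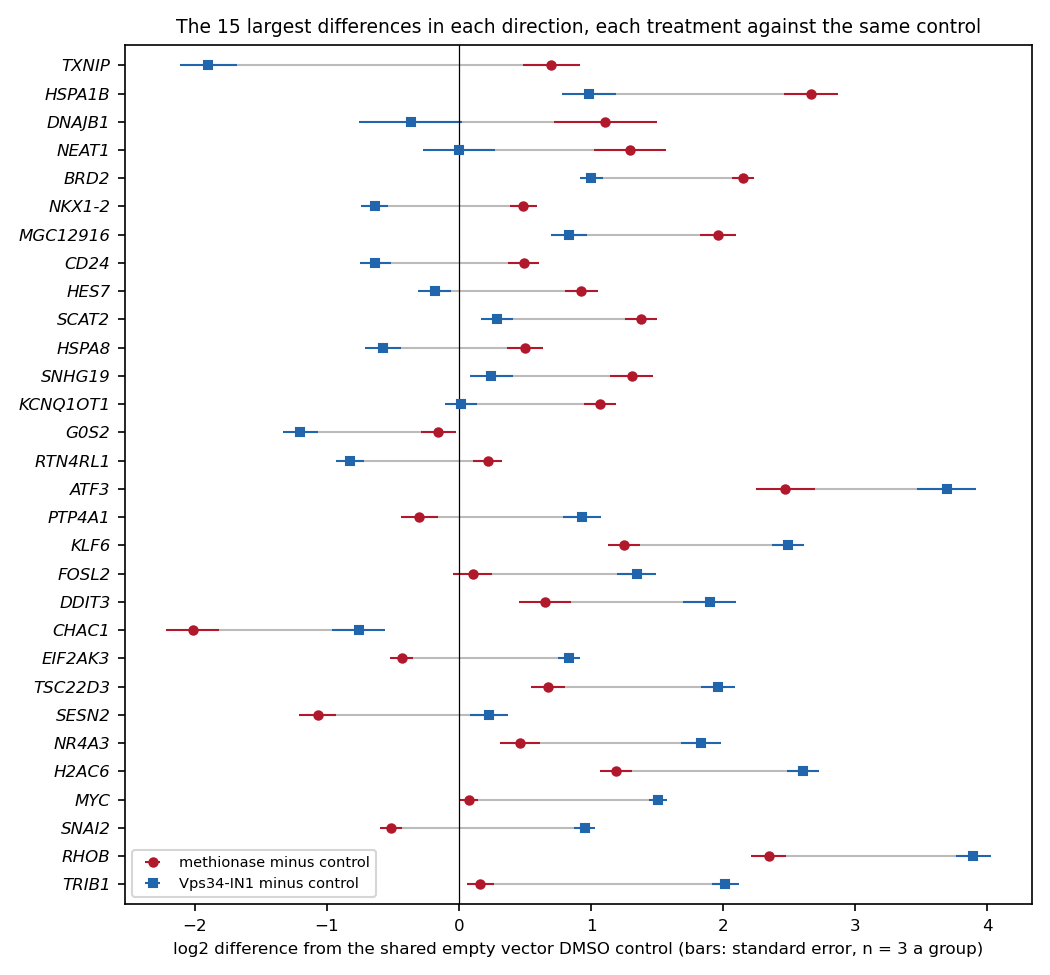
Log2 difference from the shared empty vector DMSO control for methionase (red circles) and Vps34-IN1 (blue squares), with standard errors, for the 15 largest direct differences in each direction, small RNAs and clone-type names left aside. TXNIP lies at 0.70 for methionase and -1.90 for Vps34-IN1, MYC at 0.08 and 1.51, and CHAC1 at -2.02 and -0.76.

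Immediate early factors did not all move in the same direction. Of 13 AP-1 and ATF3 genes tested, 4 were higher (30.8%) and 6 lower (46.2%) in methionase cells. Over all protein-coding genes 16% were higher and 24.7% lower. AP-1 is a family of paired leucine zipper factors that answers stress and growth signals. JUN had 33382, 26679 and 27129 normalised reads in methionase cells, against 50025, 55316 and 63130 in Vps34-IN1 cells and 6627, 7269 and 5358 in controls (-0.95 ± 0.14 log2). ATF3 was lower by 1.22 log2, JUND by 0.54, MAFG by 0.42 and MAFK by 0.65 in size, and FOSL2 had 249, 189 and 198 normalised reads in methionase cells against 482, 695 and 658 in Vps34-IN1 cells. JUNB went the other way, with 939, 874 and 772 normalised reads in methionase cells, 459, 330 and 391 in Vps34-IN1 cells and 292, 269 and 258 in controls (2.19 times in mean reads, adjusted p = 2.22e-06). FOS was higher by 0.73 ± 0.22 log2 (adjusted p = 0.0106), at 908, 1236 and 585 normalised reads in methionase cells and 396, 532 and 565 in Vps34-IN1 cells. That call was lost without methionase replicate 2 (adjusted p = 0.0933) and without drug replicate 1 (0.0624).

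Among 27 EGR, NR4A, KLF and IER genes 5 were higher (18.5%) and 11 lower (40.7%), beside 16% and 24.7% of protein-coding genes. NR4A1, a nuclear receptor without a known natural ligand, had 1994, 1999 and 1611 normalised reads in methionase cells and 3417, 4382 and 4840 in Vps34-IN1 cells, with 520, 487 and 460 in controls. NR4A3, KLF2, KLF6, SRF and ARC were lower as well, by 0.84 to 1.37 log2 in size. EGR1, in contrast, was not called: it had 85.5, 52.1 and 93.4 normalised reads in methionase cells, 79.9, 81.7 and 81.9 in Vps34-IN1 cells and 228, 267 and 208 in controls, a difference of -0.06 log2 with a 95% interval of -0.31 to 0.19. Of 17 MAP kinase phosphatases and feedback inhibitors, which switch growth factor signalling off, 8 were lower (47.1%) and 0 higher. Their median was only -0.006 log2, so the list as a whole was not shifted. The lower count was 5 with quantile normalization and without replicate 2 of either group. DUSP5 (-0.74 log2) and DUSP16 (-0.59 log2) were among the lower. Of 24 TGF-beta, SMAD and ID genes 12 were lower (50%) and 2 higher (8.33%). The higher count was 0 without methionase replicate 1, and 4 and 1 without drug replicates 1 and 2. SMAD1, SMAD4, SKI, SMURF2, ID2 and ID4 lay between -0.71 and -0.50 log2.

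The genes of the ATF4 response were mostly lower in methionase cells than in Vps34-IN1 cells. Of 39 tested, 28 were lower and 0 higher (1 without methionase replicate 2), with a median of -0.39 log2. Over all protein-coding genes 24.7% were lower and 16% higher. The list covers transcription factors, amino acid transporters and enzymes of serine and asparagine synthesis. Against the shared control, methionase cells had 5 members higher (18.1% of all genes) and 24 lower (21.1%), and Vps34-IN1 cells had 12 higher (20.2%) and 11 lower (19.9%). ATF4 itself was lower by 0.39 log2 in size, with 27237, 26203 and 23752 normalised reads in methionase cells and 31796, 34330 and 35294 in Vps34-IN1 cells.

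The promoters (250 bases before to 50 after the start, RefSeq, GRCh38.p14) of 3 stress genes carry an ATF4-type element, in capitals, and are shown to let the element be read beside the values. The searched letters were TGATGCAA, its other-strand form TTGCATCA, and TGATGAAA, on both strands. In HERPUD1 the capitals further on mark an E-box, CACGTG. CHAC1 lies at chr15:40953221-40953520 on the plus strand, SLC7A1 at chr13:29595639-29595938 on the minus strand and HERPUD1 at chr16:56931892-56932191 on the plus strand.
CHAC1: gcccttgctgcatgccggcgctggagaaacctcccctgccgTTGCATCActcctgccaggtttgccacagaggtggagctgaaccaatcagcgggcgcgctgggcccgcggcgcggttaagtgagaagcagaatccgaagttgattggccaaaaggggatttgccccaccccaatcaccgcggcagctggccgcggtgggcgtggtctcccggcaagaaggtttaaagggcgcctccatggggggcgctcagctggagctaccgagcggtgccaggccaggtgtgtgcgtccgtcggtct
SLC7A1: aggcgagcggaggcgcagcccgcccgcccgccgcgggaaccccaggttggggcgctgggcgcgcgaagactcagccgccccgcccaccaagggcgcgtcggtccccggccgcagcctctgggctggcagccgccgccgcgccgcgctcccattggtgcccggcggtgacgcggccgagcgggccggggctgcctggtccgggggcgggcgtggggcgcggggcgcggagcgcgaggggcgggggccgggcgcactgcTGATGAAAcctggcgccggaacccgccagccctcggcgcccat
HERPUD1: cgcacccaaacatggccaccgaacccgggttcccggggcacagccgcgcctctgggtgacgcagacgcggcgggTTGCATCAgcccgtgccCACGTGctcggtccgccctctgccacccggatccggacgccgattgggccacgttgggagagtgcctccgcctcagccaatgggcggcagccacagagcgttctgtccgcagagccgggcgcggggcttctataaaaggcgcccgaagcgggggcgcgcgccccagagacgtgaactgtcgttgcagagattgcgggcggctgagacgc
Such letters were in 4 of 31 promoters of the ATF4 list (12.9%), those of ASNS, CHAC1, FGF21 and SLC7A1, and in 2% of all 27305 promoters. HERPUD1 belongs to the unfolded protein response list described below, where 1 of 29 promoters (3.45%) held them, its own. A match describes the letters and says nothing of binding.

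CHAC1, which degrades glutathione and is a sensitive readout of ATF4 activity, had 174, 119 and 131 normalised reads in methionase cells, against 561, 399 and 375 in Vps34-IN1 cells and 1059, 842 and 567 in controls. All methionase libraries lay below all drug libraries, and drug libraries below the controls (-1.26 ± 0.20 log2, adjusted p = 3.98e-05). SLC7A1, the cationic amino acid transporter, had 4845, 3867 and 3587 normalised reads in methionase cells, 7285, 7110 and 6780 in Vps34-IN1 cells and 6476, 6469 and 4952 in controls. The other transporters SLC7A5 (-0.79 log2) and SLC38A2 (-0.61 log2) also stood lower, and so did the hormone gene STC2 (-0.73) and the alanine aminotransferase gene GPT2 (-0.70). SESN2, a leucine sensor that restrains mTORC1, was lower by 1.30 log2 in size, with 2282, 1646 and 1734 normalised reads in methionase cells and 4747, 4793 and 4638 in Vps34-IN1 cells. TRIB3 (-0.80 log2), CEBPB (-0.71) and CTH (-0.54), the cystathionine-cleaving enzyme, moved likewise.

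DDIT3, the CHOP factor of prolonged stress, had 903, 816 and 693 normalised reads in methionase cells, 2028, 1940 and 2076 in Vps34-IN1 cells and 579, 525 and 359 in controls. Here both treatments exceeded the control libraries, by 0.65 and 1.90 log2, and the direct difference was -1.25 ± 0.20 log2. PPP1R15A, which directs dephosphorylation of eIF2, was lower by 0.58 log2 in size. ASNS, asparagine synthetase, was not called, at 361, 350 and 243 normalised reads in methionase cells, 364, 456 and 409 in Vps34-IN1 cells and 236, 173 and 169 in controls (-0.31 log2, 95% interval -0.61 to -0.01, adjusted p = 0.0946). Of 20 cytosolic aminoacyl-tRNA synthetase genes, 9 were lower (45%) and 0 higher, beside 24.7% and 16% of protein-coding genes. TARS1 (-0.44 log2), GARS1 (-0.40) and EPRS1 (-0.36) were among the lower.

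The unfolded protein response of the endoplasmic reticulum raises chaperones and degradation factors when folding there fails. Of 31 genes tested 20 were lower (64.5%) and 2 higher (6.45%) in methionase cells, beside 24.7% and 16% of protein-coding genes. The 2 higher were the chaperone genes HSPA5 and CALR. The higher count was 0 without methionase replicate 1 or drug replicate 2, and 1 without methionase replicate 2 or drug replicate 1. Against the control, methionase cells had 11 members above (18.1% of all genes were) and 7 below (21.1%), 7 of 31 being near the share of all genes, and Vps34-IN1 cells had 20 above (20.2%) and 2 below (19.9%). XBP1, the factor activated by IRE1 splicing, had 4501, 4220 and 4303 normalised reads in methionase cells, 7958, 8498 and 7783 in Vps34-IN1 cells and 4443, 4256 and 3823 in controls. The methionase libraries thus sat at the control level (0.06 log2, adjusted p = 0.773) and the drug libraries 0.94 log2 above it (direct difference -0.88 ± 0.14 log2, adjusted p = 2.99e-05). The sensors followed: EIF2AK3, which encodes the eIF2 kinase PERK, had 218, 237 and 240 normalised reads in methionase cells and 706, 627 and 673 in Vps34-IN1 cells, and ATF6 and ERN1 were each lower by 0.54 log2 in size. The degradation genes HERPUD1 (-0.71 log2) and SEL1L (-0.57) and the co-chaperone DNAJB9 (-0.47) were lower too.

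HSPA5, the lumenal chaperone BiP, had 79146, 67978 and 48215 normalised reads in methionase cells, 51387, 43183 and 48614 in Vps34-IN1 cells and 10986, 11561 and 10255 in controls. Both treatments lay far above the controls, by 2.54 and 2.12 log2, and their libraries overlapped. The difference of 0.42 ± 0.13 log2 (adjusted p = 0.0124) was lost without methionase replicate 1 (adjusted p = 0.101) or 2 (0.0514) and without drug replicate 2 (0.065). HSPA5 and XBP1 both carry an ER stress element, CCAAT and CCACG with 9 bases between them, marked by capitals in their RefSeq promoters. HSPA5 lies at chr9:125241294-125241593 and XBP1 at chr22:28800520-28800819, both on the minus strand of GRCh38.p14.
HSPA5: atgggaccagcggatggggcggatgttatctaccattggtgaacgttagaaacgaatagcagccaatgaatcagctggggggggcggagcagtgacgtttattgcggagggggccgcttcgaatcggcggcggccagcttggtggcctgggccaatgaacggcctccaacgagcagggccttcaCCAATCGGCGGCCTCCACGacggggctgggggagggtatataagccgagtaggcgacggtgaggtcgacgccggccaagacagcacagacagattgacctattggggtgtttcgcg
XBP1: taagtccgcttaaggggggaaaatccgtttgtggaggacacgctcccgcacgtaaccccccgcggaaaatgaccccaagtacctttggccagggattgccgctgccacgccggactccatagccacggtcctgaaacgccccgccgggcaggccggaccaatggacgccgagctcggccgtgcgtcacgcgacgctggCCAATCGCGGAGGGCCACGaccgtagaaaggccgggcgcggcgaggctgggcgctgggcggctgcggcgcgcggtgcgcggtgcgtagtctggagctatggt
The element was found in 6 of 29 promoters of the list (20.7%) and in 22 of all 27305 (0.0806%), on either strand. The 2 genes printed differ in opposite directions between the treatments.

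**Figure D3:**
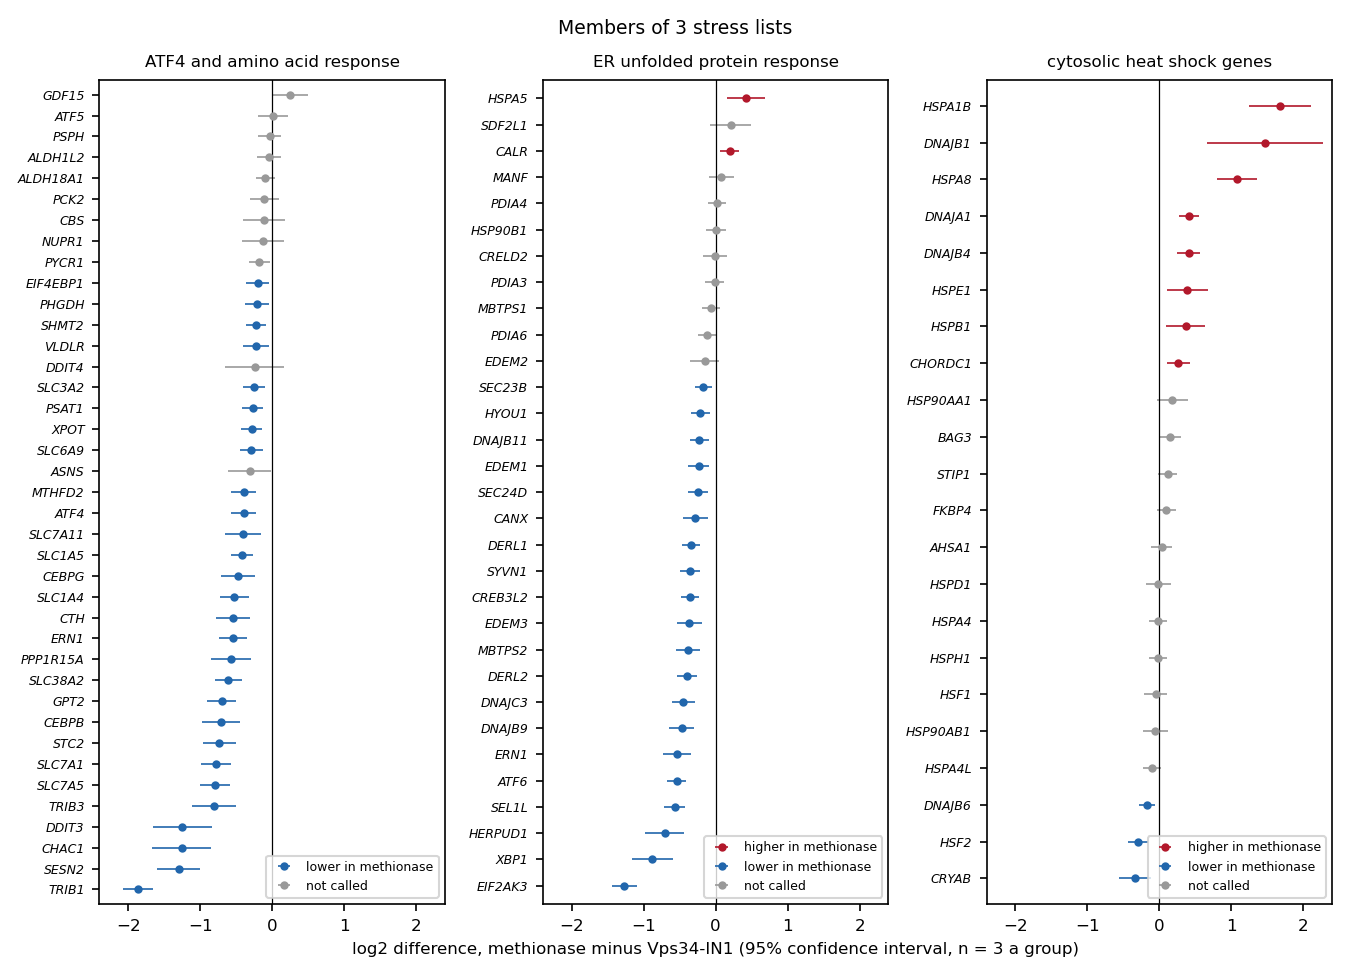
Log2 difference of methionase minus Vps34-IN1 with 95% confidence intervals for the tested members of the ATF4, unfolded protein response and heat shock lists, red where called higher, blue where called lower and grey where not called. The ATF4 list has 28 of 39 members called lower, the unfolded protein response list 20 of 31, and the heat shock list 8 of 22 called higher.

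Cytosolic heat shock genes, targets of HSF1 that fold newly made and damaged proteins, leaned the other way. Of 22 tested, 8 were higher (36.4%) and 3 lower (13.6%), beside 16% and 24.7% of protein-coding genes, with a median of 0.11 log2. HSPA1B, an inducible HSP70 gene, had 574, 777 and 793 normalised reads in methionase cells, 201, 145 and 163 in Vps34-IN1 cells and 51, 44.6 and 64.6 in controls (1.68 ± 0.21 log2, adjusted p = 1.7e-06). It shares most of its sequence with HSPA1A, which is not analysed here, so its reads may come from both. DNAJB1, the partner of HSP70, had 3063, 5657 and 3902 normalised reads in methionase cells, 1384, 1371 and 1487 in Vps34-IN1 cells and 1755, 1848 and 1939 in controls. The groups did not overlap, but the methionase libraries spread widely (1.47 ± 0.39 log2, adjusted p = 0.00469).

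HSPA8, the constitutive HSP70, had 21242, 27669 and 26412 normalised reads in methionase cells, 11051, 11888 and 12399 in Vps34-IN1 cells and 16124, 17663 and 19103 in controls, so methionase libraries lay above and drug libraries below the control (1.08 ± 0.14 log2, adjusted p = 2.22e-06). DNAJA1 was higher than with the drug (0.41 log2) but below the control in both treatments, by -0.58 and -0.99 log2. DNAJB4 was higher by 0.41 log2, and HSF2, a heat shock factor, was lower by 0.30 log2 in size. With both treatments HSPA1B ranged from 308 to 943 normalised reads.

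Among the genes tested, small nucleolar RNAs formed the gene type with the largest share of higher calls. Of 161 snoRNA genes tested, 102 were higher and 1 lower in methionase cells (63.4% and 0.621%, median 0.43 log2). C/D box snoRNAs guide ribose methylation of ribosomal RNA, for which S-adenosylmethionine is the methyl donor, and H/ACA box snoRNAs guide pseudouridylation. Of 99 C/D box genes tested 71 were higher and 1 lower (41 higher with a stricter filter that tested fewer of them). Of 57 H/ACA and scaRNA genes tested 30 were higher and 0 lower (16 higher with that filter). The deposited values hold 187 and 155 such genes. The filter took the mean over all 18 libraries, so genes low with the drug could pass it through methionase libraries. SNORD75 had means of 17.2 with methionase and 2.74 with Vps34-IN1, and SNORD4B 22 and 4.1. The shares of the 161 snoRNA genes and of the 2 lists therefore describe tested genes only. These 2 lists were drawn up after the counts by gene type had been seen. SnoRNAs have no poly(A) tail as mature RNA, and the libraries were poly(A)-selected.

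The 2 snoRNAs with the largest differences, SNORD14E and SNORD14D, exceeded every other higher gene but TXNIP and lie in HSPA8, as does SNORD14C. All 3 had means of only 3.09 to 4.46 normalised reads with Vps34-IN1, so they may have passed the filter through their methionase libraries. Their sequences are shown with the C box letters TGATGA and, where present, the D box letters CTGA in capitals, beside SNORD14A and SNORD14B of the same family, which lie in RPS13. All are from GENCODE v29 (GRCh38), on the minus strand of chromosome 11, at chr11:123059335-123059422 (SNORD14C), chr11:123058909-123058995 (SNORD14D), chr11:123058077-123058161 (SNORD14E), chr11:17074654-17074744 (SNORD14A) and chr11:17075779-17075868 (SNORD14B).
SNORD14C: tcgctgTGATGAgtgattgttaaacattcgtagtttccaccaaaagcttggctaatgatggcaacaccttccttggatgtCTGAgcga
SNORD14D: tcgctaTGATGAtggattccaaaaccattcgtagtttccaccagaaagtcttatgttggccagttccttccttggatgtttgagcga
SNORD14E: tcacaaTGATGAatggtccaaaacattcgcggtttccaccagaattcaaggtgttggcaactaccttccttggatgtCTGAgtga
SNORD14A: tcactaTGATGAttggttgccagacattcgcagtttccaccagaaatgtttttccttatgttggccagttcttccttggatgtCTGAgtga
SNORD14B: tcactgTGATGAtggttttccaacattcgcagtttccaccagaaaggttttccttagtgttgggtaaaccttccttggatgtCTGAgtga
None of the 7 HSPA8 or 2 RPS13 transcripts of the basic annotation has an exon over these snoRNAs, so they are intronic, on their host's strand. The longest stretch shared by all 5 genes has 13 bases, cttccttggatgt. Whether any reads were divided among these related genes was not tested. Of 79 tested C/D box snoRNAs with a sequence, 50 hold TGATGA near the start and CTGA near the end, searched on the sense strand in the outer parts of equal length when each sequence is cut into 3.

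SNORD14C had 39.6, 133 and 55.8 normalised reads in methionase cells, against 2.05, 2.04 and 5.18 in Vps34-IN1 cells and 3.64, 0 and 2.77 in controls. SNORD14D had 70.6, 220 and 85.3 in methionase cells and 1.02, 6.13 and 6.22 in Vps34-IN1 cells. SNORD14E had 80.2, 234 and 85.3 in methionase cells and 3.07, 7.15 and 1.04 in Vps34-IN1 cells. In each case methionase replicate 2 stood highest and no libraries overlapped (1.35 ± 0.23, 1.70 ± 0.25 and 1.79 ± 0.29 log2). SNORD14A, in RPS13, was higher by 0.81 log2 and SNORD14B by 0.71. The host HSPA8 was higher by 1.08 log2 and RPS13 was not called (0.11 ± 0.10 log2).

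By position alone, 152 of 156 tested snoRNA and scaRNA genes lay within a tested gene, 77 hosts in all. Of the 100 that were higher, 80 lay in a host that was not called higher, and 1 of these in a host called lower. Among the 77 hosts 9 were higher (11.7%), 11 lower (14.3%) and 57 not called, shares that do not exceed the 16.3% and 19.9% of all genes. The median over the 152 was 0.44 log2 and over their hosts -0.01. Some of the 152 may have passed the filter through their methionase libraries, so this contrast with the hosts describes tested genes only. SNORD74, in GAS5, had 163, 254 and 122 in methionase cells and 32.8, 51.1 and 43.5 in Vps34-IN1 cells. GAS5 itself was higher by 0.37 log2.

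**Figure D4:**
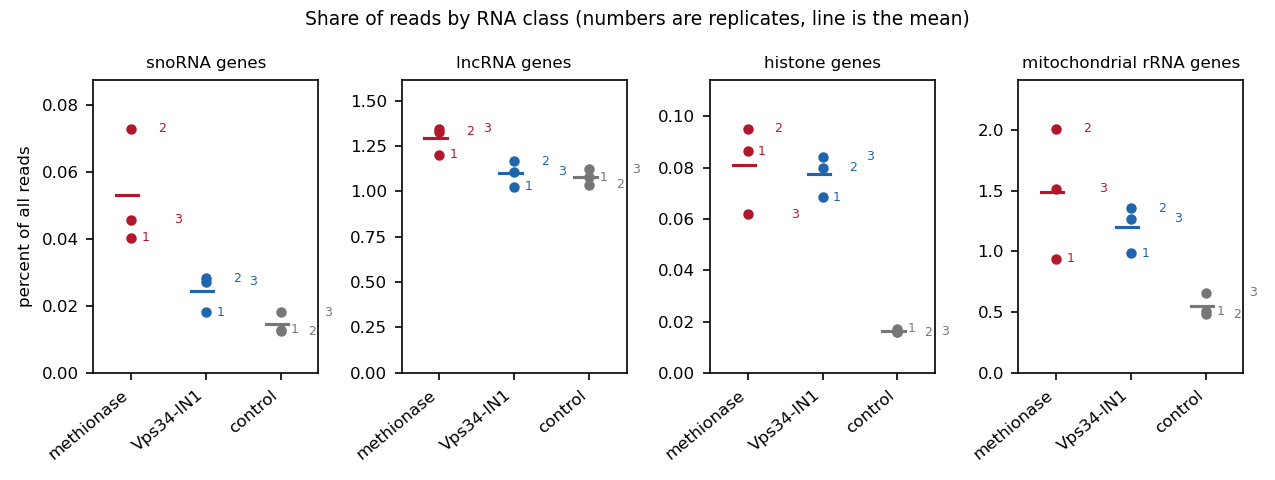
Percent of all reads on snoRNA, lncRNA, replication-dependent histone and mitochondrial rRNA genes in each library, for methionase, Vps34-IN1 and the empty vector DMSO control at 24 h; numbers are replicates and the line is the mean. The snoRNA share is 0.0404% to 0.0730% with methionase and 0.0181% to 0.0283% with Vps34-IN1, and the histone share overlaps between them.

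The snoRNA share of reads was 0.0531% ± 0.0175 in methionase cells, 0.0245% ± 0.0056 in Vps34-IN1 cells and 0.0145% ± 0.0031 in controls (SD, n = 3 each; exact two-sided permutation test of methionase against Vps34-IN1, p = 0.1, the smallest possible with 3 against 3). Methionase replicate 2, which had the highest snoRNA share, also had the highest share of mitochondrial rRNA, 2.01% against 0.938% and 1.52% in the other methionase libraries. The mitochondrial rRNA share was 1.49% ± 0.536 with methionase, 1.20% ± 0.193 with Vps34-IN1 and 0.548% ± 0.0956 in controls (SD, n = 3 each; exact permutation p = 0.5, methionase against Vps34-IN1). Whether the make-up of the RNA bears on the snoRNA values was not tested. With each of the 6 libraries left out in turn, 54 to 73 C/D box genes were higher.

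Of 2604 lncRNA genes 108 were lower and 474 higher (4.15% and 18.2%), while of 13540 protein-coding genes 3338 were lower and 2163 higher (24.7% and 16%), so the higher shares lay close together; the difference between gene types was not tested. NEAT1, the scaffold of paraspeckles, had 96.2, 329 and 249 normalised reads in methionase cells, 15.4, 76.6 and 61.2 in Vps34-IN1 cells and 33.7, 19.5 and 108 in controls (1.29 ± 0.27 log2, adjusted p = 0.000701). MALAT1 was higher by 0.90 log2, the imprinted antisense RNA KCNQ1OT1 by 1.05, and the snoRNA hosts SNHG3, SNHG12 and SNHG19 by 0.47 to 1.06. SNHG15 was lower, by 0.45 log2 in size. Among 26 non-coding snoRNA hosts 9 were higher (34.6%) and 5 lower (19.2%). The lower count was 2 without methionase replicate 3 or without drug replicate 3. SFPQ, a protein of paraspeckles, was lower by 0.39 log2 in size.

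BRD2, a bromodomain reader of acetylated histones, had 2652, 2634 and 2030 normalised reads in methionase cells, 1178, 946 and 1029 in Vps34-IN1 cells and 474, 469 and 500 in controls. Both treatments raised it and methionase more (1.15 ± 0.08 log2, adjusted p = 2.07e-09). RBM12, an RNA-binding protein gene, was lowered by both and less by methionase, with 1226, 1299 and 1326 normalised reads in methionase cells, against 584, 578 and 607 in Vps34-IN1 cells and 2430, 2639 and 2425 in controls. BMF, a BH3-only death gene, had 190, 211 and 221 in methionase cells, 73.8, 66.4 and 71.5 in Vps34-IN1 cells and 282, 267 and 269 in controls (0.99 ± 0.09 log2).

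Replication-dependent histone genes, whose RNAs normally end in a stem-loop without poly(A), were above the control in both treatments. Of 34 tested, 30 were higher in methionase cells (18.1% of all genes were) and 30 in Vps34-IN1 cells (20.2%). In either treatment 0 were lower, beside 21.1% of all genes with methionase and 19.9% with Vps34-IN1. Between the treatments 4 were higher and 7 lower in methionase cells, shares of 11.8% and 20.6%, beside 16.3% and 19.9% of all genes. H2BC21 had 7446, 8442 and 3989 normalised reads in methionase cells, 3483, 4178 and 4479 in Vps34-IN1 cells and 219, 194 and 184 in controls. The groups overlapped through methionase replicate 3 (0.64 ± 0.16 log2, adjusted p = 0.00362). H2AC6 differed in the opposite sense, with 251, 228 and 130 in methionase cells and 596, 678 and 694 in Vps34-IN1 cells (-1.41 ± 0.12 log2), and H2BC12 (-0.57 log2) and H2BC5 (-0.36 log2) were also lower. Histone genes have near-identical copies, so reads of single members are uncertain. As a class they took 0.0812% ± 0.0173 of reads in methionase cells, 0.0776% ± 0.00817 in Vps34-IN1 cells and 0.0163% ± 0.000694 in controls (SD, n = 3 each; exact permutation p = 0.8, methionase against Vps34-IN1).

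The genes of the kinase complex that the drug targets were mostly lower in methionase cells than in Vps34-IN1 cells. Of 8 class 3 PI3K genes tested 7 were lower (87.5%, beside 24.7% of protein-coding genes) and 0 higher, with a median of -0.28 log2. Against the control, methionase cells had 1 member higher (18.1% of all genes were) and 4 lower (21.1%), with a median of -0.08 log2. Vps34-IN1 cells had 4 higher (20.2% of all genes) and 1 lower (19.9%), with a median of 0.23 log2. The drug's median thus lay further from the control, on the higher side. PIK3C3, the catalytic subunit, had 419, 419 and 399 normalised reads in methionase cells, 475, 471 and 526 in Vps34-IN1 cells and 658, 703 and 690 in controls. Both treatments lay below the control (-0.63 and -0.42 log2), and the direct difference of -0.21 ± 0.06 log2 (adjusted p = 0.00956) was lost without drug replicate 3 (0.0633). PIK3R4, the regulatory subunit VPS15, had 719, 694 and 697 in methionase cells, 910, 918 and 869 in Vps34-IN1 cells and 935, 917 and 930 in controls (-0.32 log2). BECN1 (-0.35 log2), ATG14 (-0.27), AMBRA1 (-0.30) and RUBCN (-0.33) were lower as well.

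Endosome genes leaned the same way. Of 54 endosome, retromer and ESCRT genes 30 were lower (55.6%) and 0 higher, with 19 lower under quantile normalization. Over all protein-coding genes 24.7% were lower and 16% higher. CHMP1B, an ESCRT-III subunit, had 767, 802 and 737 normalised reads in methionase cells, 1344, 1607 and 1669 in Vps34-IN1 cells and 761, 709 and 751 in controls (-0.92 ± 0.13 log2). VPS35 of the retromer was lower by 0.39 and the tethering subunit VPS11 by 0.43 log2 in size. Of 44 lysosomal genes 14 were lower (31.8%, not far from the share of protein-coding genes) and 2 higher (4.55%). GLA, alpha-galactosidase A, had 6371, 6351 and 5568 in methionase cells, 10376, 11344 and 12099 in Vps34-IN1 cells and 4773, 4801 and 5222 in controls (-0.88 log2). LAMP1, LAMP2 and CTSD were lower by 0.23 to 0.33 log2 in size, and CTSC, a protease, was higher by 0.33 log2. Of 18 V-ATPase subunits 9 were lower (50%) and 0 higher, with 4 lower under quantile normalization.

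Of 34 genes of the autophagy machinery 12 were lower (35.3%) and 3 higher (8.82%), beside 24.7% and 16% of protein-coding genes. With quantile normalization only 3 were lower and 4 higher. ATG16L1 was lower (-0.48 log2), and ATG16L2 (0.51 log2) and the lipid transfer gene ATG2B (0.35 log2) were higher. Among 20 autophagy receptors 8 were lower (40%) and 1 higher (5%), with 5 lower under quantile normalization. SQSTM1, the p62 receptor, had 2242, 2130 and 2259 normalised reads in methionase cells, 2808, 2828 and 2821 in Vps34-IN1 cells and 2315, 2240 and 2317 in controls, and TOLLIP (-0.72), NCOA4 (-0.48) and NBR1 (-0.37 log2) were lower. FUNDC1, a mitophagy receptor, was the higher member (0.26 log2). Of 31 genes of TFEB, folliculin and Rag control of mTORC1 12 were lower (38.7%) and 1 higher (3.23%), with FNIP1 at -0.61 and RRAGC at -0.50 log2. The higher count was 3 without drug replicate 1 and 0 without any other single library but methionase replicate 2. Of 37 phosphoinositide kinases and phosphatases 15 were lower (40.5%) and 1 higher (2.7%), and 9 and 5 with quantile normalization. MTMR4, a phosphatase of phosphatidylinositol 3-phosphate, stood at -0.60 log2.

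In the methionine cycle, 6 of 12 tested genes were lower (50%) and 2 higher (16.7%), with 3 lower under quantile normalization. Over all protein-coding genes 24.7% were lower and 16% higher. MAT2A, which makes S-adenosylmethionine, had 2946, 4811 and 5309 normalised reads in methionase cells, 1708, 2807 and 2235 in Vps34-IN1 cells and 5167, 4844 and 6405 in controls. Every methionase library lay above every drug library, and the drug libraries lay below the controls (0.91 ± 0.17 log2, adjusted p = 0.000225; methionase against control -0.36 log2, adjusted p = 0.103). MTR, methionine synthase, was also higher (0.32 log2), while MTRR, its reductase, was lower (-0.59 log2). AHCY, which removes the product of methylation, was not called (-0.09 log2, 95% interval -0.22 to 0.04). Of 20 polyamine and salvage genes 7 were lower (35%) and 1 higher (5%), and 4 and 3 with quantile normalization. ODC1, which starts polyamine synthesis, was lower by 0.49 log2 in size. SAT1 and AMD1 were not called, at 0.20 and -0.13 log2 with intervals of -0.08 to 0.48 and -0.27 to 0.00.

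Methyltransferases and other chromatin enzymes were mostly on the lower side where called. Of 30 histone lysine methyltransferases 13 were lower (43.3%) and 1 higher (3.33%), beside 24.7% and 16% of protein-coding genes. SETD7 had 1348, 1226 and 1262 normalised reads in methionase cells, 1893, 1898 and 1810 in Vps34-IN1 cells and 2449, 2601 and 2206 in controls, so both treatments lay below the control and methionase lower still (-0.52 ± 0.07 log2). SETDB1 was lower by 0.46 log2 in size. Of 21 histone demethylases 8 were lower (38.1%) and 2 higher (9.52%), with KDM6A at -0.57 and its relative KDM6B at 0.29 log2. With quantile normalization 5 demethylases were lower. Of 37 chromatin remodellers 14 were lower (37.8%) and 3 higher (8.11%). The counts were 8 lower and 9 higher with quantile normalization, and 1 higher without methionase replicate 1 or drug replicate 1. Of 16 DNA methylation and TET genes 2 were lower (12.5%) and 0 higher, both below the shares of protein-coding genes. TET1 was above the control in both treatments (0.84 and 0.80 log2), with 966, 950 and 866 normalised reads in methionase cells and 852, 871 and 975 in Vps34-IN1 cells, a difference of 0.04 log2 with a 95% interval of -0.15 to 0.23.

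Of 34 cholesterol genes 11 were lower (32.4%) and 4 higher (11.8%), not far from the 24.7% and 16% of protein-coding genes. With quantile normalization 8 were lower and 7 higher. IDI1 had 5821, 6876 and 7612 normalised reads in methionase cells, 11524, 13409 and 14718 in Vps34-IN1 cells and 3063, 3285 and 3241 in controls (-0.96 ± 0.09 log2). MSMO1 was higher (0.28 log2). HMGCS1 was not called (-0.14 log2, 95% interval -0.36 to 0.08). Of 38 glycolysis and hypoxia genes 9 were lower (23.7%, beside 19.9% of all genes) and 3 higher (7.89%, beside 16.3%), the lower share being near that of all genes. SLC2A1, the glucose transporter, had 596, 557 and 529 in methionase cells, 1018, 921 and 878 in Vps34-IN1 cells and 1227, 1411 and 1377 in controls (-0.67 log2), and HK2 (-0.56) and HIF1A (-0.55) were lower too, while EGLN3 (0.54) and ADM (0.63) were higher.

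**Figure D5:**
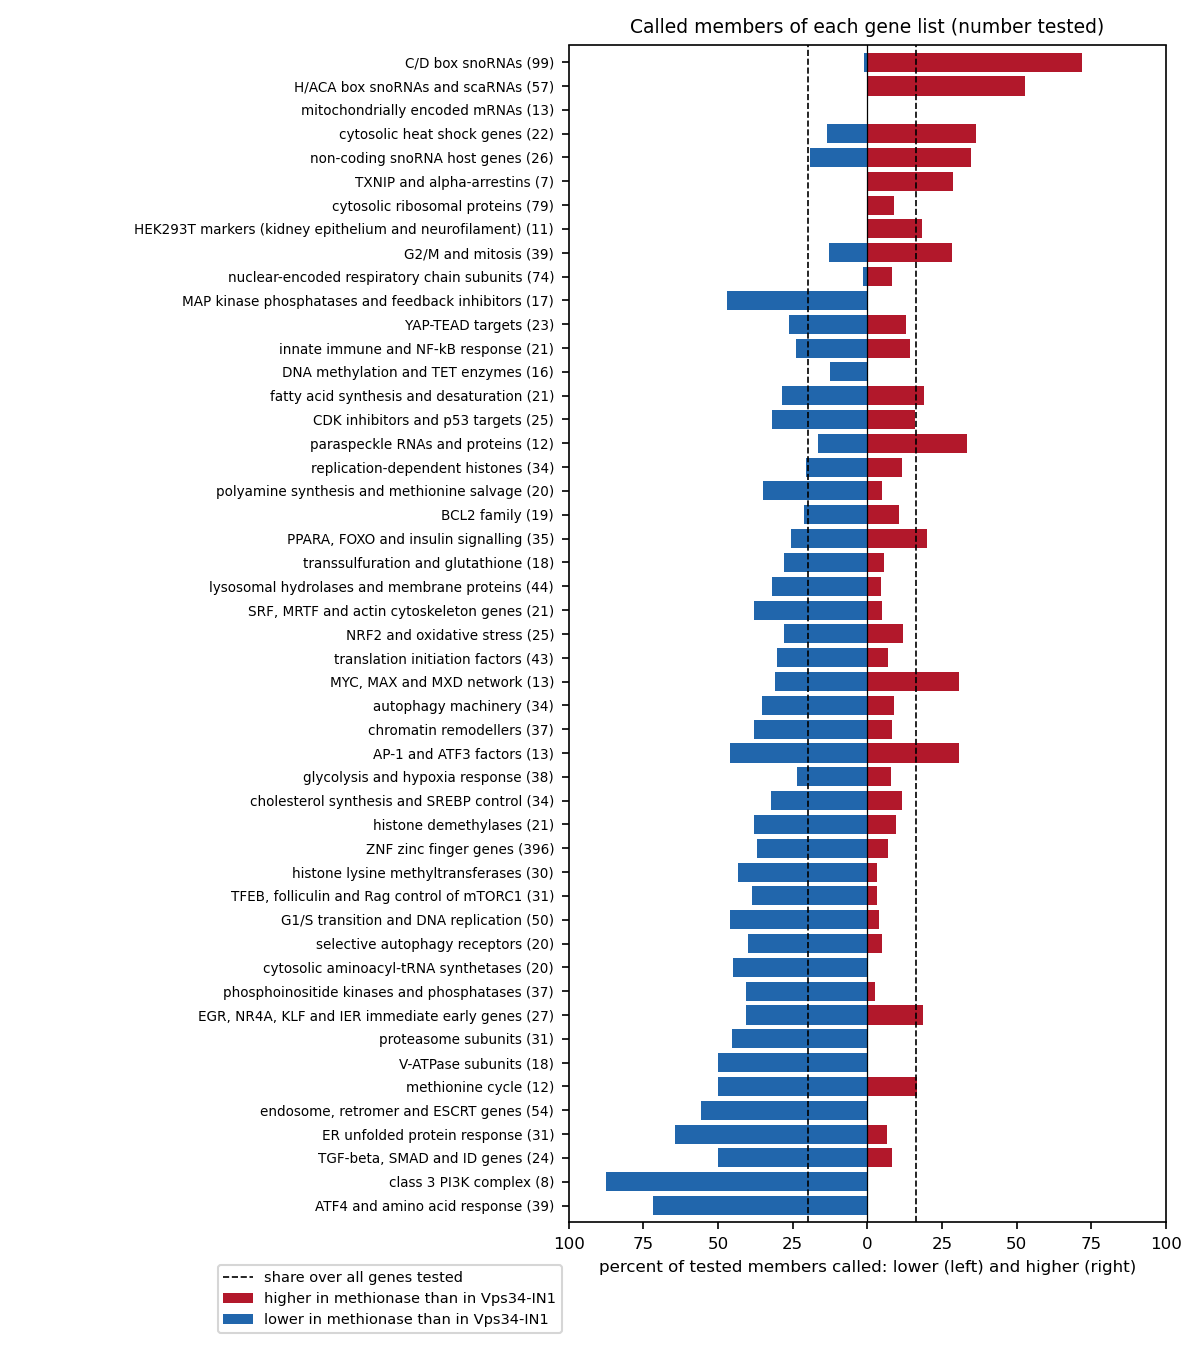
Percent of the tested members of each gene list that were called higher (red, right) or lower (blue, left) in methionase than in Vps34-IN1 cells, ordered by the list's median difference, with dashed lines at the shares over all genes (16.3% higher, 19.9% lower). The C/D box snoRNA list has 71 of 99 members higher and the ATF4 list 28 of 39 lower.

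The cell cycle lists differed in their counts. Of 50 G1/S and DNA replication genes 23 were lower (46%) and 2 higher (4%), beside 24.7% and 16% of protein-coding genes. With quantile normalization 13 were lower. E2F3 (-0.85 log2), UNG (-0.49) and MCM10 (-0.39) were among the lower. CCND1, cyclin D1, was higher, with 296, 273 and 335 normalised reads in methionase cells, 203, 147 and 164 in Vps34-IN1 cells and 467, 451 and 402 in controls (0.62 ± 0.09 log2). Of 39 G2/M genes 11 were higher (28.2%) and 5 lower (12.8%), and 20 higher and 0 lower with quantile normalization. The count of lower genes was 2 and 1 without methionase replicates 1 and 3, and 2, 2 and 3 without drug replicates 1, 2 and 3. MKI67 had 5851, 5346 and 4971 in methionase cells, 3020, 3407 and 3698 in Vps34-IN1 cells and 4455, 4764 and 4706 in controls (0.66 log2). KIF20A (0.45), UBE2C (0.40), CENPA (0.32), AURKB (0.31) and CCNB1 (0.26 log2) were higher as well.

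Of 79 cytosolic ribosomal protein genes 7 were higher (8.86%) and 0 lower, both below the 16% and 24.7% of protein-coding genes. The higher count was 0, 4 and 12 without methionase replicates 1, 2 and 3, and 3 without drug replicate 1 or 2. Of 74 nuclear-encoded respiratory chain genes 6 were higher (8.11%) and 1 lower (1.35%), again below the shares of protein-coding genes. The counts were 31 higher with quantile normalization, 12 higher without methionase replicate 3 and 6 lower without methionase replicate 1. By limma 0 of the 13 mitochondrially encoded mRNAs were called, against 2 higher without methionase replicate 1 and 1 lower without methionase replicate 3. Of 43 translation initiation factors 13 were lower (30.2%, not far from the 24.7% of protein-coding genes) and 3 higher (6.98%). The counts were 5 and 5 with quantile normalization, and 8 lower without methionase replicate 2. EIF5, which activates hydrolysis of GTP on eIF2, was the largest of these, with 1655, 1573 and 1609 normalised reads in methionase cells, 3677, 3782 and 3505 in Vps34-IN1 cells and 3037, 3342 and 3588 in controls (-1.14 ± 0.10 log2). Of 31 proteasome subunits 14 were lower (45.2%) and 0 higher. The lower count was 4 under quantile normalization, 9 and 6 without methionase replicates 2 and 3, and 7 without drug replicate 3.

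Several genes far from the control in both treatments were not called between them. CUL3, the ubiquitin ligase scaffold, had 971, 1001 and 1115 normalised reads in methionase cells, 1088, 951 and 913 in Vps34-IN1 cells and 1786, 1864 and 1805 in controls (0.06 log2, 95% interval -0.07 to 0.19). PPARA, the fasting-related nuclear receptor, had 376, 335 and 407 in methionase cells, 429, 394 and 351 in Vps34-IN1 cells and 607, 614 and 517 in controls (-0.06 log2, 95% interval -0.22 to 0.11). Intervals of this width bound the difference and do not show that the treatments act alike.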

How the data were processed

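RNA was poly(A)-selected with oligo-dT beads, made into strand-marked libraries by dUTP and sequenced on a DNBSEQ-G400, per the labels' protocols. The authors used STAR 2.7.10b, featureCounts, DESeq2, limma and hg38, per the submitters' processing notes; their roles, the annotation and the strand setting are not given in the sources used here. The authors deposited variance-stabilised log2 values for 37097 lines in 18 libraries, of which 1 names no gene and holds up to 0.00216% of a library's reads.

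Undoing the transformation gave whole reads for 100% of values (within 0.01 of a whole number), and with them the size factors and 18278586 to 20825232 reads per library. For testing, limma 3.58.1 (R 4.3.3) was run on the log2 values of all 18 libraries, with 1 mean per group and a variance trend, for the 17755 genes whose mean lay at least 0.5 above the lowest value, 5.45. The fit was tested on simulated data. The 3 values of a read share were compared by exact permutation. No 2 replicates of a group matched within sampling noise.

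Named genes are the 15 largest differences in each direction at 100 or more normalised reads in either group whose libraries did not overlap (clone-type and small RNA names, snoRNAs included, left out), up to 3 per list and direction, and a fixed set that was followed; others, among them SLC7A1, XBP1, HERPUD1, NR4A1, GAS5, ATG14, RUBCN and the single snoRNAs, were picked with their values in view. The gene lists, and the comparison itself, were chosen with earlier results of these data known. Symbols matched GRCh38.p14 for 36162 of 37096 named genes, and 227 of 273 named genes had a RefSeq promoter. Alternatives were other filters, scalings, variance models, voom on the recovered reads, a replicate block, the 6 libraries alone, and each library left out. A few genes that the rule names are not reported here.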

Additional observations from a re-analysis of the deposited data

How the results depend on the processing

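Against 2891 genes higher and 3542 lower in methionase than in Vps34-IN1 cells, the counts were 2624 and 2816 with quantile normalization (1956 and 2327 of them shared), 2755 and 3659 with equal library medians, 2663 and 3156 with no filter, 2465 and 3563 with a stricter filter, 2489 and 3112 with the 6 libraries alone, and 2868 and 3385 with voom on the recovered reads. Leaving out each library in turn gave 2347 to 2743 higher and 2962 to 3431 lower. The count past 1 log2 was 54 on the deposited scale, 51 to 66 with a library left out, and 864 with voom, which does not shrink differences of genes with few reads. Of all settings for the named genes 3944 kept direction and call, 140 lost the call, 5 gained it and 4 changed sign. The sign changes were all in genes not called: with quantile normalization AHCY stood at 0.0078 log2. With each library left out EGR1 ran from -0.145 to 0.080, HMGCS1 from -0.292 to 0.056 and PPARA from -0.121 to 0.0031 log2; the cause was not tested. List counts stayed within 1.5 times in 1385 settings and moved beyond it in 205. How depth limits the calls was not tested.

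The labels number the replicates of both groups 1 to 3 without saying that a number marks a shared culture or day. Deviations of same-numbered libraries correlated at 0.352, 0.202 and 0.014, and methionase replicate 3 correlated best with drug replicate 2 (0.162), so the numbers were not taken to pair the libraries. With a replicate block 2870 genes were higher and 3496 lower.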

Other observations

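Zinc finger genes of the ZNF family, most of them repressors of transcription, were more often lower than higher. Of 396 tested, 146 were lower and 27 higher in methionase than in Vps34-IN1 cells (36.9% and 6.82%, beside 24.7% and 16% of protein-coding genes), with a median of -0.13 log2. With quantile normalization 174 were lower and 18 higher. Methionase cells had 170 members below the control (21.1% of all genes were) and 46 above it (18.1%). Vps34-IN1 cells had 104 below (19.9% of all genes) and 86 above (20.2%), 86 of 396 being near the share of all genes.

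BCL2 family genes, which set the threshold for mitochondrial cell death, were called at shares near those of all genes, 2 higher (10.5%, beside 16.3%) and 4 lower (21.1%, beside 19.9%) of 19 tested. The lower count was 1 with quantile normalization and 2 without methionase replicate 3, and the higher count 1 without methionase replicate 1 or drug replicate 2. PMAIP1, which encodes the BH3-only protein NOXA, had 7676, 7608 and 6315 normalised reads in methionase cells and 15647, 16543 and 16791 in Vps34-IN1 cells, a difference of -1.18 log2. All methionase libraries lay below all drug libraries.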
